A study of Mus musculus with 9 samples.

Results

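The genes described here are 47 genes of DNA replication and of the supply of its deoxynucleotides, followed in D2.0R cells on 2 matrices. They were chosen by name for their known role in origin licensing, in the replisome or in deoxynucleotide synthesis. The choice used no expression threshold, but earlier results of these data were known when it was made. All 47 symbols were found among the 23309 gene symbols of the expression files. All 47 passed the filter for testing, a mean of at least 1 FPKM (fragments scaled by transcript length and by the mapped fragments of the library) over the 9 libraries, which left 10497 genes. Each of the 47 also reached at least 1 FPKM in every library, so no gene passed through the group in which it was high.

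D2.0R is a mouse mammary tumour cell line that remains dormant on basement membrane extract (BME) and proliferates when type I collagen (COL1) is mixed into it. RNA was sequenced from 3 groups of 3 biological replicates, each labelled a, b and c: cells on BME at day 1, cells at day 5 on BME, and cells on BME + COL at day 5. All groups were the same untreated line in the same low-serum medium with matrix added to it, so the matrix and the day in culture were the differences between groups. BME + COL at day 1 was not analysed here, and the effect of time on that matrix therefore cannot be told apart from that of the matrix in the comparison with day 1.

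Replication starts at origins that are bound by the origin recognition complex in G1, when CDC6 and CDT1 load the ring-shaped MCM helicase onto DNA. In S phase the ring is activated by CDC45, the GINS complex and MCM10, polymerases copy both strands behind a sliding clamp, and ribonucleotide reductase and thymidylate enzymes deliver the deoxynucleotides. Most of these genes are transcribed at the G1 to S transition under E2F factors and are low in cells that have left the cycle. In RNA from whole cultures, fewer cells in S phase and less RNA per cell cannot be told apart, and this holds for every value below.

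The libraries held 7.21 to 9.37 gigabases of aligned sequence, with total FPKM from 287611 to 423289. The lowest of both values belonged to BME day 5 replicate b, which stood apart from replicates a and c. Of all tested genes, 51.7% had their lowest value of the 9 libraries there. The counts and medians over the 47 genes are therefore given with and without it, as are some values of single genes and roles. Values without such a remark, and those of the further gene lists, use all libraries. Of 6 epithelial markers 4 reached 1 FPKM, and the summed epithelial level was 1436 to 1595 FPKM at day 1, 775 to 1150 at day 5 on BME and 2337 to 2444 on BME + COL. The summed level of 8 fibroblast markers was 23.4 to 31.6, 50.6 to 62.3 and 4.64 to 4.87 FPKM in the same order, with 4 of them under 1 FPKM throughout. Haematopoietic markers were under 1 FPKM throughout in 5 of 7 cases, 3 of them at 0, and summed to 6.81 to 9.92, 5.44 to 6.78 and 4.82 to 5.06 FPKM. Endothelial markers were under 1 FPKM in 4 of 5 cases, Flt1 being the exception, and summed to 14.1 to 17.3, 10.3 to 12.6 and 17.1 to 18.8 FPKM. These lists moved with the groups compared below, and their part in the results was not tested. Mki67, a gene of cycling cells that is not one of the 47, was at 14.1 to 17.9 FPKM at day 1, 4.88 to 18.5 at day 5 on BME and 42.3 to 48.3 on BME + COL.

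Short E2F-type motifs were found in some of the promoters of these genes, and most promoters had none. The 200 bases before the annotated start of each gene's most abundant transcript were read from the mm9 genome and searched on both strands for TTTCCCGC, TTTGGCGC, TTTCGCGC, TTTGCCGC, TTCCCGCC, TTGGCGGG and TTGGCGCC. These motifs can overlap one another. At least 1 of them was present in 17 of the 47 promoters (36.2%), against 765 of the 10450 other tested genes (7.32%). A CCAAT box was present in 61.7% of the 47 and in 32.3% of the others, and the CHR letters TTTGAA or TTCGAA in 8.51% and 8.11%. A match describes the letters and does not show a bound site. Below, capitals mark the matches, and each window holds the matches with up to 20 bases on either side, on the strand of the gene. Cdc6, Mcm5, Prim1 and Uhrf1 are shown as the genes with the largest difference between BME and BME + COL in their role, and Mcm3, Mcm4, Mcm6 and Mcm7 as further subunits of the helicase, added after their values had been seen.
Cdc6, chr11:98769101-98769182, plus strand: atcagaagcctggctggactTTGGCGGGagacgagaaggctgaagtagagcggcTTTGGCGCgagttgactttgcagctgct
Mcm5, chr8:77633235-77633286, plus strand: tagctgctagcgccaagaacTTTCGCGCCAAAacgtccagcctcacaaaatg
Mcm6, chr1:130256302-130256412, minus strand: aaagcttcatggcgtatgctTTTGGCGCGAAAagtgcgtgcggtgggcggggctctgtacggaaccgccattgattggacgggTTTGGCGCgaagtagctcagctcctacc
Mcm3, chr1:20810325-20810395, minus strand: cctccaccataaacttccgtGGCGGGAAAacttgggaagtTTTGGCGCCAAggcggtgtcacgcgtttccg
Mcm4, chr16:15637544-15637591, minus strand: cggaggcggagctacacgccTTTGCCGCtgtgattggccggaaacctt
Mcm7, chr5:138613109-138613290, minus strand: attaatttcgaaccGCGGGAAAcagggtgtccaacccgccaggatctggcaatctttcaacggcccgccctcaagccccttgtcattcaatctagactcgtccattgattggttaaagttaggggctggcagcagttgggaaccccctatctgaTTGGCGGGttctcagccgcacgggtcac
Prim1, chr10:127452236-127452270, plus strand: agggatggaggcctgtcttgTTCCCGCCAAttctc
Uhrf1, chr17:56442692-56442739, plus strand: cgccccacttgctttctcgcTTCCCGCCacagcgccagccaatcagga

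The capitals in the Mcm5 window read the same as the first run of capitals in the Mcm6 window on the opposite strand, and both runs are overlapping matches to more than 1 motif. Mcm2 is the subunit of the ring with no match. Of the other genes with the largest difference in their role, Mcm10, Rfc5, Fen1 and Tk1 had no match to these letters in this window. The 17 genes with a match had a median log2 difference between BME and BME + COL at day 5 of -1.84 (range -2.36 to -0.56), and the 30 without had a median of -1.52 (range -2.52 to -0.41). The ranges overlapped almost completely, and a match did not separate the genes with large differences from those with small ones.

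At day 5 every one of the 47 genes was lower on BME than on BME + COL. The median difference was -1.64 on the log2(FPKM + 0.1) scale, from -2.52 for Tk1 to -0.41 for Orc5, against a median of -0.18 over all tested genes. All 47 were called lower (limma, adjusted p under 0.05), where 45.3% of all tested genes were called lower and 30.3% higher. As all 47 differences were below 0, none could be called higher at any threshold. For all 47 the 3 BME values lay below the 3 BME + COL values, as they did for 48.1% of all tested genes, with 32.1% lying above. Without BME day 5 replicate b all 47 were again called lower, where 44.5% of all tested genes were lower and 34.4% higher. The median was then -1.26, against -0.10 over all tested genes. Rfc5 then had the largest difference, at -2.01 (4.02-fold). Cdc6, Mcm5 and Tk1 were 3.76-fold, 3.77-fold and 3.76-fold lower without that library. Mcm10, Prim1, Fen1 and Uhrf1 were 3.31-fold, 2.87-fold, 2.88-fold and 3.02-fold lower. The larger fold differences given for these genes below use all libraries.

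From day 1 to day 5 on BME the 47 genes differed less. The median difference was -0.44, against -0.15 over all tested genes. Of the 47 genes 4 were called lower and none higher, where 22.2% of all tested genes were called lower and 9.09% higher (limma). At an unadjusted p under 0.05, 11 were lower and 0 higher. The share of all tested genes at that threshold was not computed, so this count has no background beside it. The 3 day 5 values lay below the 3 day 1 values for 12 of the 47 genes and above for none, against 37.1% and 12.8% of all tested genes. Without replicate b the median was -0.07, the same as over all tested genes.

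Cells on BME + COL at day 5 had higher levels of these genes than cells on BME at day 1. Of the 47 genes 44 were called higher and none lower, where 34.2% of all tested genes were called higher and 31.8% lower, and the median difference was 1.18 against 0.03. As all 47 differences were above 0, from 0.24 to 2.05, none could be called lower at any threshold. All 47 had their 3 BME + COL values above the 3 day 1 values, as 41.6% of all tested genes did, and 38.3% lay below. Orc5, Cdt1 and Rfc1 were not called, with differences of 0.24, 0.33 and 0.36 and adjusted p-values of 0.109, 0.28 and 0.1 (limma). BME day 5 replicate b enters these values only through the spread shared by all libraries. Without it Orc5, Cdt1 and Rfc1 had adjusted p-values of 0.0157, 0.00303 and 7.8e-05 (limma). All 47 genes were then called higher, where 40.6% of all tested genes were. This comparison shares its BME + COL libraries with the first and its day 1 libraries with the second, so the values stand side by side and do not support each other.

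**Figure D1:**
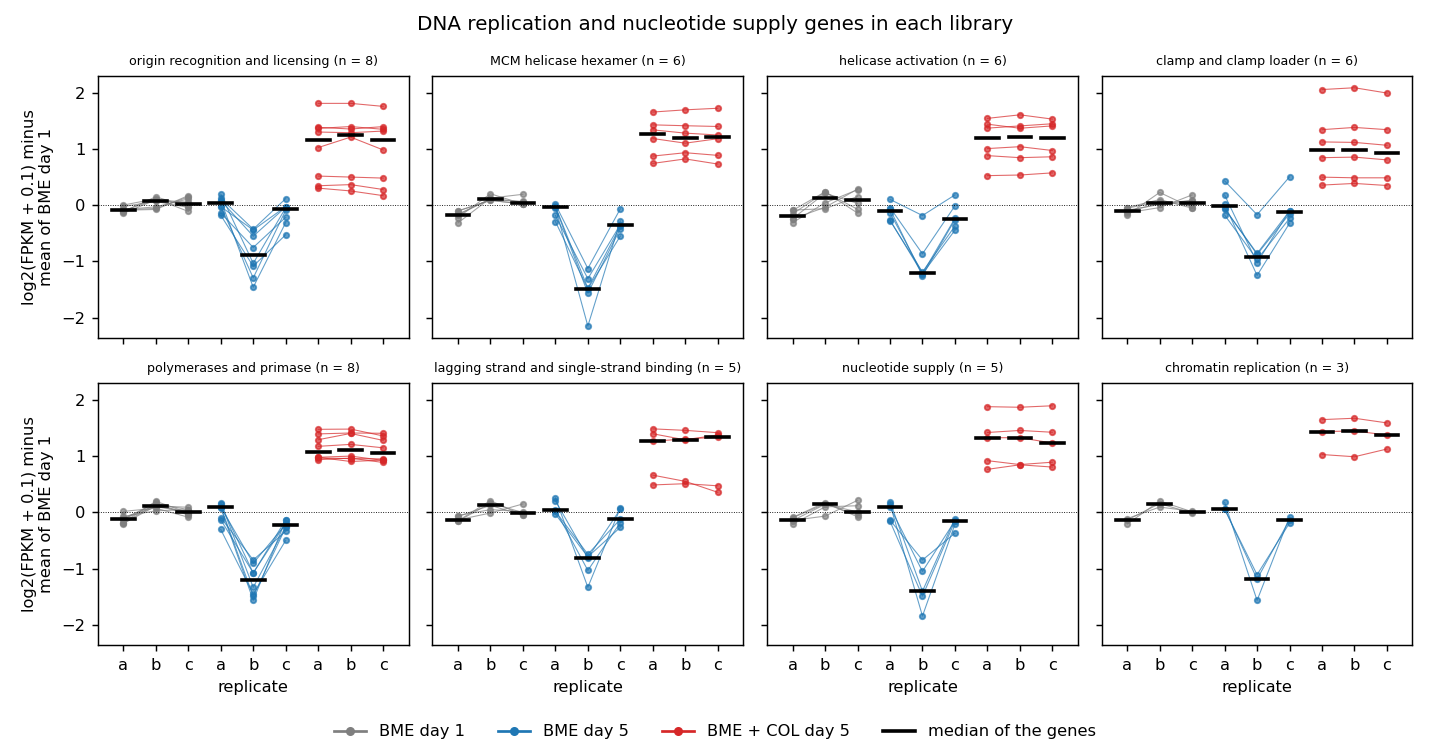
Each panel plots the genes of 1 role in the 9 libraries, as log2(FPKM + 0.1) minus the gene's mean over the BME day 1 libraries (y axis), with replicates a, b and c of each group on the x axis. Lines join the replicates of a gene within a group and black bars are medians over the genes. In every panel the BME + COL libraries lie above 0 with little spread, BME day 5 replicates a and c lie near the day 1 libraries, and BME day 5 replicate b lies lowest.

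Scaling moved these genes and all others together. The median of all tested genes between BME and BME + COL at day 5 was -0.18 in FPKM and 0.16 after rescaling to TPM (transcript shares that sum to the same total in every library), with 3327 genes called lower and 4858 higher in TPM, against 4756 and 3179. The median of the 47 genes minus that of all genes was -1.46 on either scale. TPM divides each library by a single factor and shifts all genes nearly alike, so this equality was fixed beforehand. After quantile normalization, which uses no single factor, the value was -1.37. The replicates of BME + COL were close for these genes, with a median SD of 0.03 on the log2 scale, against 0.14 at day 1 and 0.61 on BME at day 5, where it was 0.14 without replicate b. Over all tested genes the median SD was 0.06, 0.10 and 0.18 in the same order, and 0.06 without replicate b.

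The origin recognition and licensing genes differed more among themselves than any other role. Cdc6 (chr11:98769203-98785256), the loader that brings the MCM ring to the origin and is destroyed in quiescent cells, had 2.74, 3.25 and 3.15 FPKM on BME at day 1, 3.22, 1.04 and 2.43 at day 5, and 10.9, 10.9 and 10.5 on BME + COL. No BME library came near the BME + COL libraries. The gene was 5.12-fold lower on BME than on BME + COL at day 5 (log2 -2.36, SE 0.31, limma adjusted p = 9.81e-05, n = 3 per group). Against day 1 it differed by -0.56 on BME (adjusted p = 0.18, limma) and by 1.79 on BME + COL (SE 0.31, adjusted p = 0.000801, limma).

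Orc1 (chr4:108252059-108287436), the largest subunit of the origin recognition complex, had 3.36, 3.64 and 3.1 FPKM at day 1, 2.95, 1.53 and 2.3 at day 5 on BME, and 6.93, 7.9 and 6.73 on BME + COL. The 3 groups did not overlap. It was lower on BME than on BME + COL (log2 -1.67, SE 0.20, limma adjusted p = 4.39e-05) and lower on BME at day 5 than at day 1 (log2 -0.60, SE 0.20, limma adjusted p = 0.0442). The last call was not kept without replicate b, with a difference of -0.35 and an adjusted p of 0.0501, and was lost in 13 of 21 alternatives. Orc2 and Orc6 were also lower on BME than on BME + COL, by -1.74 and -1.47. Orc3 and Orc5, which are core subunits of the same complex, differed less, by -0.56 and -0.41, and their calls were lost in TPM, at -0.23 and -0.06.

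CDT1 and its inhibitor geminin did not move alike. Cdt1 had 26.3, 27.2 and 30 FPKM at day 1, 31.8, 13.5 and 26.9 at day 5 on BME, and 35.3, 35.8 and 33.7 on BME + COL. Its difference between BME and BME + COL was among the smallest of the 47 genes (log2 -0.63, SE 0.26, limma adjusted p = 0.049). The call was lost in 14 of 21 alternative analyses, with the sign unchanged. Gmnn, which encodes geminin, had 11.9, 14.3 and 12.6 FPKM at day 1, 12.7, 5.2 and 12.1 at day 5 on BME, and 33.8, 33.1 and 34.1 on BME + COL (log2 -1.85 between BME and BME + COL, SE 0.28, limma adjusted p = 0.000235). The ratio of Cdt1 to Gmnn, taken within each library, was 2.16 ± 0.237 at day 1, 2.44 ± 0.195 at day 5 on BME and 1.04 ± 0.0459 on BME + COL (SD, n = 3). It ranged from 1.9 to 2.59 over the 6 BME libraries and from 0.99 to 1.08 on BME + COL. Replicate b of day 5, at 2.59, lay beside replicate a, at 2.51, here, both genes being low in it.

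Cdc6, like Gmnn, differed more between BME and BME + COL than Cdt1 did, and its ratio is written with Cdt1 as the divisor. The ratio of Cdc6 to Cdt1 was 0.11 ± 0.00851 at day 1, 0.0896 ± 0.0118 at day 5 on BME and 0.308 ± 0.00308 on BME + COL (SD, n = 3). Because these ratios are formed inside a library, they do not change with its scaling. No test was run on them, and 3 against 3 samples allow no exact permutation p under 0.1.

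**Figure D2:**
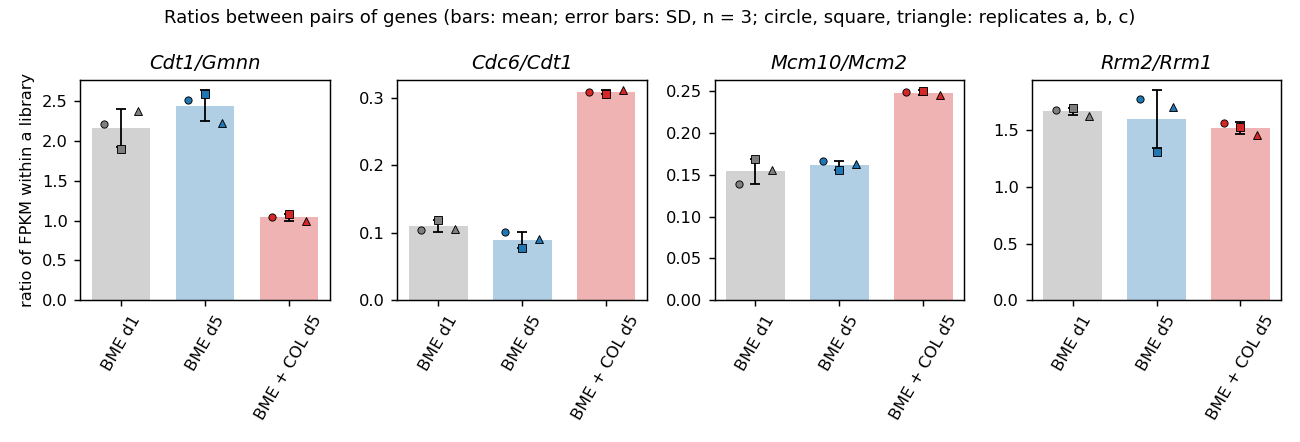
Ratios of FPKM between pairs of genes within a library (y axis, no unit) for the 3 groups (x axis), with bars for the mean, error bars for the SD of 3 replicates and symbols for single replicates. The ratio of Cdt1 to Gmnn is 1.9 to 2.59 on BME and 0.99 to 1.08 on BME + COL, while the ratios of Cdc6 to Cdt1 and of Mcm10 to Mcm2 are higher on BME + COL than in any BME library and the ratio of Rrm2 to Rrm1 overlaps between the day 5 groups.

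The 6 genes of the MCM ring, the helicase that unwinds DNA at the fork, all differed by more than 1 on the log2 scale between BME and BME + COL, with a median of -1.79 (range -2.36 to -1.51). That median was -1.32 without BME day 5 replicate b (range -1.92 to -1.16). Mcm5 (chr8:77633427-77652338) had 18.7, 25.1 and 22.1 FPKM at day 1, 21.3, 7.3 and 16.3 at day 5 on BME, and 68.9, 70.8 and 72.2 on BME + COL. It was 5.14-fold lower on BME than on BME + COL at day 5 (log2 -2.36, SE 0.32, limma adjusted p = 0.000108). Between the days on BME it differed by -0.67 (adjusted p = 0.126, limma), and it was 3.23-fold higher on BME + COL than at day 1 (adjusted p = 0.00125, limma).

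Mcm4 (chr16:15623990-15637493) had 20.4, 24.9 and 24.1 FPKM at day 1, 18.8, 8.14 and 15.7 at day 5 on BME, and 38.6, 40.8 and 38.3 on BME + COL. All 3 day 5 values on BME were below the day 1 values, replicate b by the most. The difference between days on BME was -0.78 (SE 0.25, limma adjusted p = 0.0435), and without replicate b it was -0.42 (adjusted p = 0.0128). The call was lost in 11 of 21 alternatives. Mcm4 also had the smallest difference of the ring between BME + COL and day 1, at 0.76 (adjusted p = 0.0237, limma).

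Below Mcm7 the order of the subunits by mean FPKM differed between the groups. Mcm7 was the highest of the ring in all 9 libraries, and the lowest was Mcm3 at day 1 and Mcm4 on BME + COL. The highest exceeded the lowest by 1.76 to 2.26 times in 8 libraries. In BME day 5 replicate b the factor was 3.05, with Mcm6 the lowest at 5.54 FPKM, against 24.2 and 20.5 FPKM in replicates a and c. Mcm6 had the largest SE of the ring, 0.45, and its difference of -2.11 between BME and BME + COL (limma adjusted p = 0.00197) became -1.45 without replicate b. The ring took 21.7% to 22% of the summed FPKM of the 47 genes on BME + COL, 19.7% to 20.7% at day 1, and 19%, 15.4% and 18.4% in BME day 5 replicates a, b and c.

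**Figure D3:**
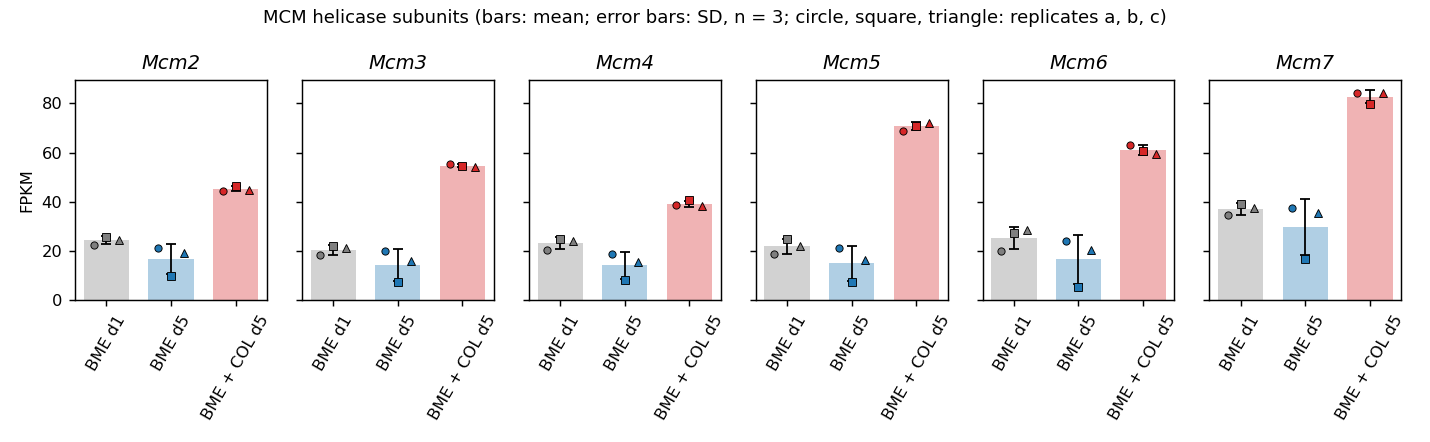
FPKM (y axis) of the 6 MCM ring genes in the 3 groups (x axis), with bars for the mean, error bars for the SD of 3 replicates and symbols for single replicates. All BME + COL values lie above all BME values of the same gene, and the square for BME day 5 replicate b is the lowest point in every panel.

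The factors that turn the loaded ring into an active helicase were lower on BME in all 6 cases, with Gins3 (-1.17) and Gins4 (-0.51) outside the range of the ring. Mcm10 (chr2:4911770-4933837), which is needed for the first unwinding, had 3.15, 4.35 and 3.83 FPKM at day 1, 3.56, 1.51 and 3.11 at day 5 on BME, and 11.1, 11.6 and 11 on BME + COL. It was 4.25-fold lower on BME than on BME + COL (log2 -2.09, SE 0.26, limma adjusted p = 6.98e-05) and 2.95-fold higher on BME + COL than at day 1 (adjusted p = 0.000655, limma). The ratio of Mcm10 to Mcm2 was 0.154 ± 0.0148, 0.161 ± 0.00582 and 0.248 ± 0.00279 (SD, n = 3) at day 1, at day 5 on BME and on BME + COL, and BME day 5 replicate b, at 0.155, was within the range of the day 1 libraries.

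Cdc45 (chr16:18780540-18812065), which joins the ring and GINS in the moving helicase, had 9.37, 12.3 and 9.93 FPKM at day 1, 8.68, 4.43 and 7.65 at day 5 on BME, and 21.1, 21.6 and 20.6 on BME + COL. It was lower on BME at day 5 than at day 1 (log2 -0.65, SE 0.21, limma adjusted p = 0.047), also without replicate b (-0.36, adjusted p = 0.0345). This call was lost in 14 of 21 alternatives, so it lies at the threshold.

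The 4 GINS genes encode 1 tetramer, but their RNA levels differed widely. Gins4 had 16.9, 17.2 and 20 FPKM at day 1, 19.3, 15.8 and 20.4 at day 5 on BME, and 25.9, 26.1 and 26.8 on BME + COL, a difference of only -0.51 between BME and BME + COL (SE 0.11, limma adjusted p = 0.00164). Gins1 had 2.94 to 3.85, 1.37 to 2.67 and 8.56 to 9.04 FPKM in the same order (-2.02, SE 0.22, limma adjusted p = 2.47e-05). Gins4 was the highest of the 4 in all 6 BME libraries, and Gins2 the highest in all BME + COL libraries. The highest exceeded the lowest by 5.21 to 8.21 times in the BME libraries other than day 5 replicate b, by 11.6 times in that library and by 4.38 to 4.5 times on BME + COL.

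The sliding clamp and its loader had the smallest median difference of the 8 roles between BME and BME + COL, -1.07 with all libraries and -0.84 without BME day 5 replicate b. Pcna, the clamp, was the most abundant of the 47 genes in every library, at 79.3, 87.4 and 90.8 FPKM at day 1, 82.4, 46.6 and 77.1 at day 5 on BME, and 121, 120 and 120 on BME + COL. Its difference was -0.85 between BME and BME + COL (SE 0.19, limma adjusted p = 0.00216) and 0.49 between BME + COL and day 1 (adjusted p = 0.0404, limma). The second of these calls was lost in 10 of 21 alternatives. Clamp and loader together took 16% to 16.1% of the summed FPKM of the 47 genes on BME + COL and 19.4% to 23.8% on BME.

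The 5 loader subunits split. Rfc5 (chr5:117829154-117839032) had 8.21, 9.07 and 8.15 FPKM at day 1, 9.6, 4.11 and 7.89 at day 5 on BME, and 35.5, 36.3 and 34 on BME + COL. It was 5.13-fold lower on BME than on BME + COL (log2 -2.36, SE 0.25, limma adjusted p = 2.22e-05), and its 4.13-fold rise from day 1 to BME + COL was the largest of the 47 genes (adjusted p = 8.9e-05, limma). Rfc5 was the most abundant loader subunit in each BME + COL library, where Rfc1 was the least.

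Rfc3 and Gins4 were the genes whose difference between the days on BME was above 0, neither of them called with all libraries. Rfc3 had 14.8, 15.9 and 16.7 FPKM at day 1, 21.3, 14 and 22.4 at day 5 on BME, and 34.5, 34.3 and 33.1 on BME + COL. Replicates a and c at day 5 lay above all day 1 values and replicate b below them. With all libraries the difference between days was 0.25 (SE 0.16, limma adjusted p = 0.221), and without replicate b it was 0.46 (SE 0.06, limma adjusted p = 0.00108), the only call of the 47 genes in that direction without this library. Rfc3 was the most abundant loader subunit in each BME day 5 library. Rfc1, the large subunit, differed by -0.70 between BME and BME + COL (limma adjusted p = 0.00542).

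The 8 polymerase and primase genes were close to one another, with differences from -1.99 to -1.31 between BME and BME + COL. Those differences ran from -1.62 to -0.96 without BME day 5 replicate b. All 8 genes were called higher on BME + COL than at day 1. Prim1 (chr10:127452271-127467086), the catalytic primase subunit that lays the RNA primer, had 10.7, 13.3 and 13.1 FPKM at day 1, 13.2, 4.3 and 10.2 at day 5 on BME, and 34.4, 34.5 and 31.7 on BME + COL. It was 3.98-fold lower on BME than on BME + COL (log2 -1.99, SE 0.33, limma adjusted p = 0.000394). Its partner Prim2 differed by -1.31 and the polymerase alpha genes Pola1 and Pola2 by -1.47 and -1.43. Pold1 and Pold2, of the lagging-strand polymerase delta, differed by -1.53 and -1.83, and Pole, the catalytic subunit of the leading-strand polymerase epsilon, by -1.80.

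Pole2 (chr12:70302766-70329177), the second subunit of polymerase epsilon, had 5.53, 6.42 and 6.07 FPKM at day 1, 4.83, 2.12 and 4.21 at day 5 on BME, and 11.9, 11.3 and 11.5 on BME + COL. The 3 groups did not overlap. It was lower on BME at day 5 than at day 1 (log2 -0.76, SE 0.24, limma adjusted p = 0.0427), also without replicate b (-0.40, adjusted p = 0.00698). The call was lost in 9 of 21 alternatives. The ratio of Pole2 to Pole was 1.12 to 1.27 at day 1, 0.862 to 1.11 at day 5 on BME and 0.846 to 0.968 on BME + COL. The day 1 values of this ratio were thus above those of both day 5 groups, which overlapped each other.

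Of the genes that finish the lagging strand and cover single-stranded DNA, Fen1 (chr19:10273622-10278433), the flap nuclease that trims Okazaki fragments, had 7.28, 8.34 and 7.4 FPKM at day 1, 7.89, 3.69 and 6.73 at day 5 on BME, and 21.6, 21.2 and 20.6 on BME + COL. It was 3.59-fold lower on BME than on BME + COL (log2 -1.85, SE 0.23, limma adjusted p = 5.84e-05). Lig1, the ligase that joins the fragments, differed by -1.64 (SE 0.34, limma adjusted p = 0.00166). The RPA subunits, which coat single-stranded DNA in replication and in repair, were unequal. Rpa2 differed by -1.54, Rpa3 by -0.89 and Rpa1 by -0.77. Rpa1 was the most abundant of the 3 in all libraries and Rpa2 the least, with 3.08 to 3.9 times between them on BME and 1.85 to 2.03 times on BME + COL.

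With all libraries, the enzymes of deoxynucleotide supply included the largest difference of the 47 genes between BME and BME + COL. Tk1 (chr11:117676833-117687328), the cytosolic thymidine kinase of the salvage pathway, had 22.9, 28.4 and 28.8 FPKM at day 1, 29.4, 7.32 and 22.9 at day 5 on BME, and 97.9, 97.2 and 99 on BME + COL. Of the 6 BME values 5 lay close together, and replicate b at day 5 lay far below them. Tk1 was 5.72-fold lower on BME than on BME + COL (log2 -2.52, SE 0.41, limma adjusted p = 0.000373). Its log2 difference was -1.91 without replicate b, and Rfc5 then had the largest of the 47 genes, at -2.01. Tk1 was 3.68-fold higher on BME + COL than at day 1 (adjusted p = 0.00297, limma) and moved from the sixth most abundant of the 47 genes at day 1 to the third.

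Rrm1 and Rrm2, the large and small subunits of ribonucleotide reductase, moved alike, by -1.80 and -1.74 between BME and BME + COL. Rrm2 had 41.1, 49.4 and 41.4 FPKM at day 1, 49.9, 16.5 and 40.5 at day 5 on BME, and 110, 110 and 103 on BME + COL. The ratio of Rrm2 to Rrm1 was 1.63 to 1.7 at day 1 and 1.46 to 1.57 on BME + COL, and on BME at day 5 it was 1.78, 1.31 and 1.71, so replicate b was the lowest of all. Dut, which removes dUTP, differed by -1.49 (limma adjusted p = 0.0015) and Tyms, which makes thymidylate anew, by -1.26 (adjusted p = 7.01e-05, limma). The 5 supply genes took 20.7% to 20.8% of the summed FPKM of the 47 genes on BME + COL, 17% to 17.6% at day 1, and 18.1%, 14% and 17.2% in BME day 5 replicates a, b and c.

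The last 3 genes act on chromatin behind the fork. Uhrf1 (chr17:56442760-56462909), which brings the maintenance DNA methyltransferase to newly copied DNA, had 9.62, 12.8 and 11.2 FPKM at day 1, 12.6, 3.69 and 10.5 at day 5 on BME, and 35.1, 35.7 and 33.7 on BME + COL. It was 4.38-fold lower on BME than on BME + COL (log2 -2.13, SE 0.37, limma adjusted p = 0.000534). Chaf1a and Chaf1b, the subunits of the chromatin assembly factor that places new histones, differed by -1.84 and -1.47. All 3 were called higher on BME + COL than at day 1, and none was called between the days on BME.

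**Figure D4:**
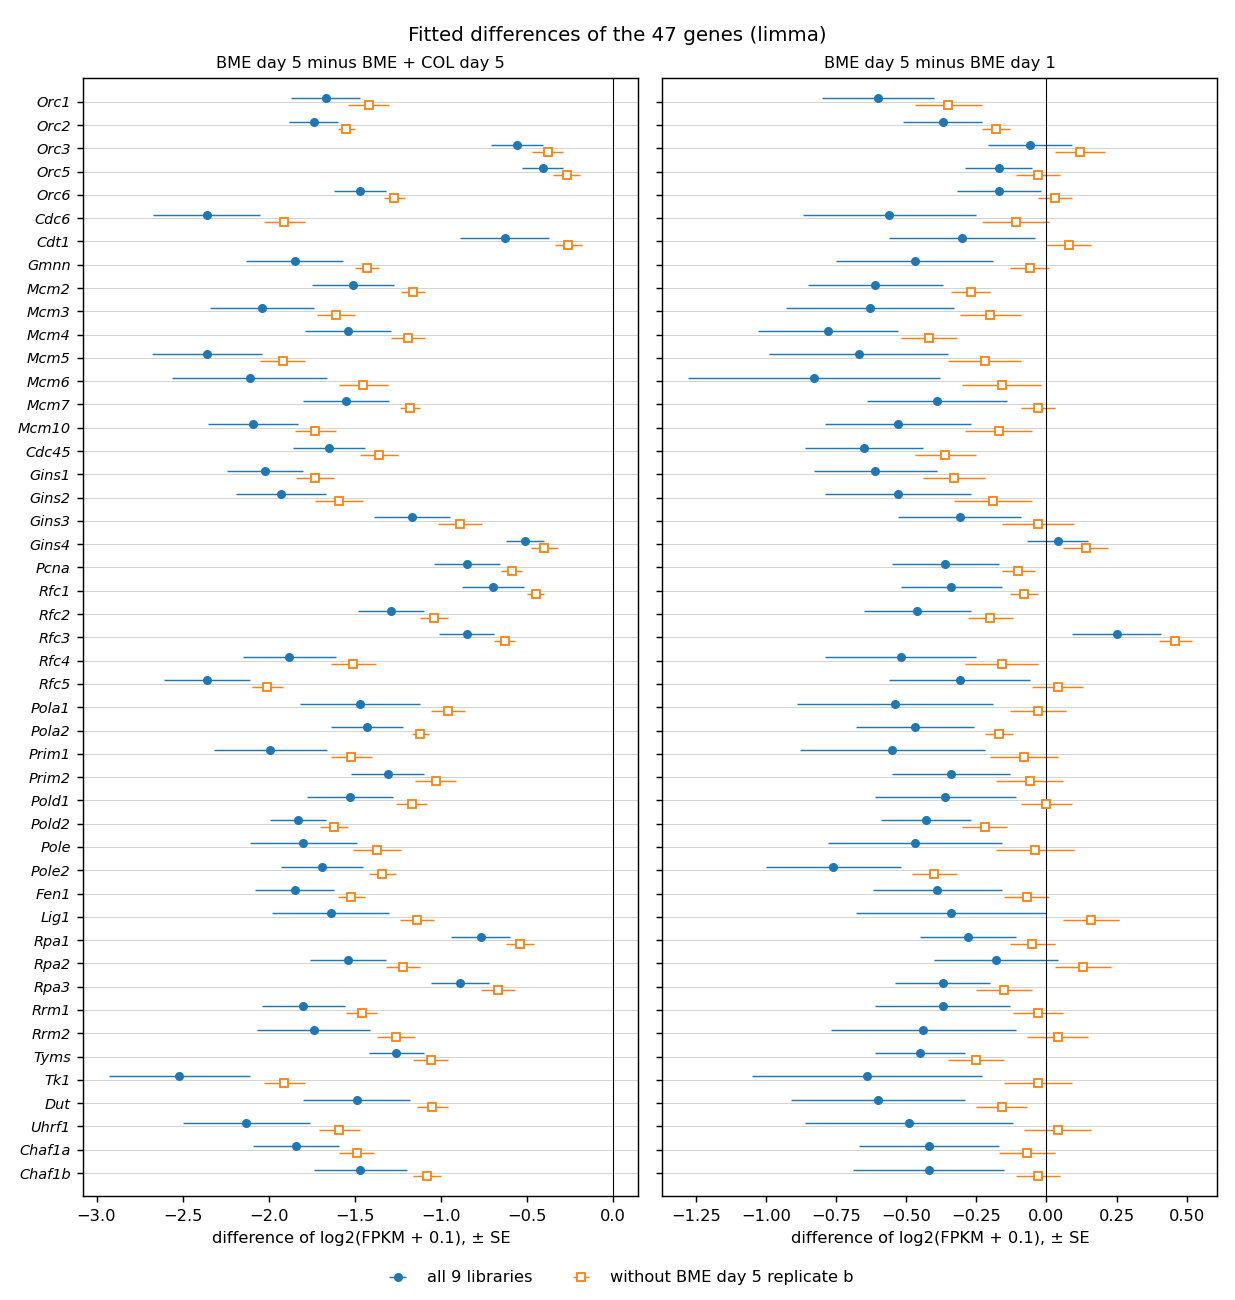
Fitted differences of log2(FPKM + 0.1) with their SE (x axes) for each of the 47 genes (y axis), for BME day 5 minus BME + COL day 5 (left) and BME day 5 minus BME day 1 (right). Filled circles use all 9 libraries and open squares leave out BME day 5 replicate b. On the left every point is below 0 in both analyses, and on the right the open squares lie around 0, with Rfc3 at 0.46 and Mcm4 at -0.42.

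BME day 5 replicate b held the lowest value of the 9 libraries for all 47 genes. Their summed level was 356 FPKM there, against 755 and 668 in replicates a and c, 685 to 793 at day 1 and 1603 to 1629 on BME + COL. As a share of all FPKM this was 0.124%, against 0.207% and 0.192% in a and c, 0.189% to 0.225% at day 1 and 0.379% to 0.39% on BME + COL. The gap between replicate b and the mean of a and c had a median of -1.04 on the log2 scale, against -0.24 over all tested genes, of which 74.2% lay below both other replicates. After rescaling to TPM the median gap was -0.74 for the 47 genes, all of them still negative, and 0.06 over all tested genes. Replicates a and c differed from each other by a median of 0.20 for the 47 genes.

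The gap was not even over the genes. It was widest for Mcm6 (-1.99, 3.97-fold lower), Tk1 (-1.81), Uhrf1 (-1.61), Pola1 (-1.53) and Lig1 (-1.50), and narrowest for Gins4 (-0.32), Orc5 (-0.42) and Orc3 (-0.54). By role the median gap ran from -0.66 for licensing and -0.77 for the clamp and its loader to -1.19 for the MCM ring and -1.33 for nucleotide supply. Across the 47 genes the gap correlated negatively with the difference between BME + COL and day 1, which uses none of the same libraries (Pearson r = -0.53, Spearman rho = -0.47). Across all 10497 tested genes the same values were -0.20 and -0.42. These correlations are over genes, which share their libraries and are not independent replicates. Mki67 had a gap of -1.73, and the median was -0.84 for 36 other replication genes and -0.60 for 36 other nucleotide genes. What set this culture apart was not tested, and its depth and total FPKM were also the lowest.

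**Figure D5:**
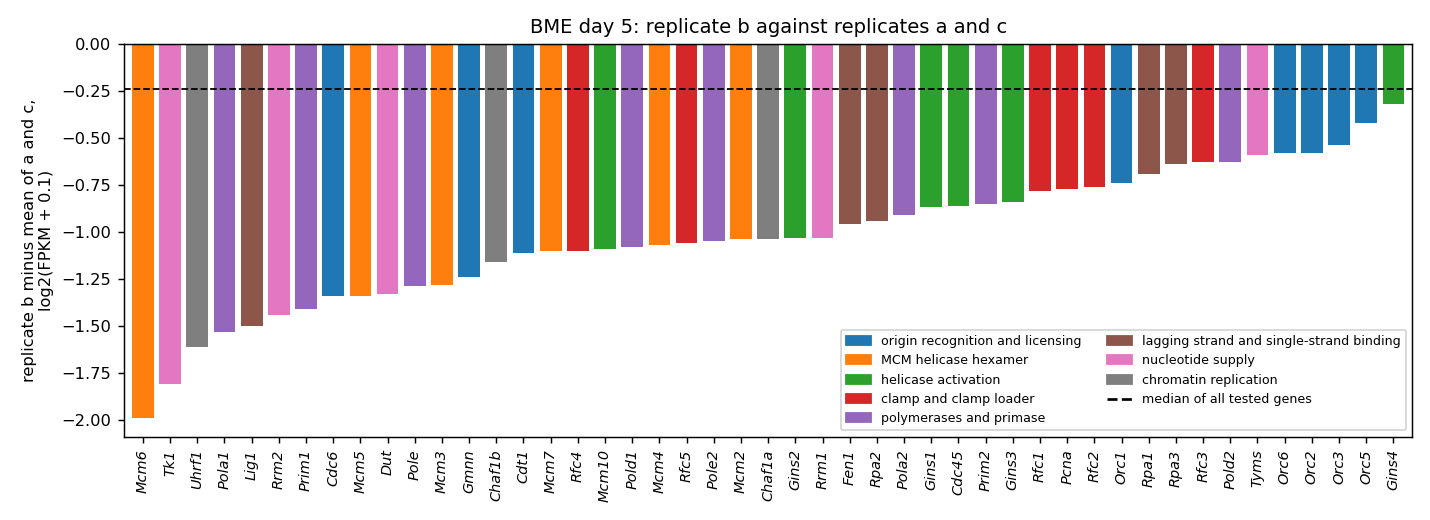
Difference of log2(FPKM + 0.1) between BME day 5 replicate b and the mean of replicates a and c (y axis) for each of the 47 genes (x axis, ordered by size, coloured by role). The dashed line is the median of all tested genes, at -0.24, and every bar reaches below it, from -0.32 for Gins4 to -1.99 for Mcm6.

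The calls between the days on BME changed with the library left out. The 4 genes called lower were Orc1, Mcm4, Cdc45 and Pole2. Without replicate b, 6 genes were called lower, where 25% of all tested genes were, with Mcm2 at -0.27, Orc2 at -0.18 and Pola2 at -0.17 joining Mcm4, Cdc45 and Pole2. Without replicate a of the same group 21 genes were called lower, where 30.9% of all tested genes were, and without replicate c 1 was, against 19.9%. Leaving out any single library of the other groups left 0, against 9.7% to 15.5% of all tested genes. With replicate b left out, the SE of most genes fell and their differences were near 0, as for Pold1 (0.00, SE 0.09), Rrm1 (-0.03, SE 0.09) and Chaf1b (-0.03, SE 0.08).

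The abundance of the 47 genes spanned a wide range within each group. The 3 highest at day 1 were Pcna (85.8 ± 5.87 FPKM, SD, n = 3), Rrm2 (43.9 ± 4.71) and Mcm7 (37.1 ± 2.4), whose replicate ranges did not overlap. The 3 lowest were Orc3 (2.76 ± 0.253), Cdc6 (3.05 ± 0.268) and Gins1 (3.28 ± 0.5), whose replicate ranges overlapped. On BME + COL the order began with Pcna (120 ± 0.642), Rrm2 (108 ± 4.28) and Tk1 (98 ± 0.888) and ended with Orc3 (3.93 ± 0.051). The precision of a single value depended on this level: the interval given by Cufflinks lay, in the median, 9.64% to either side of values under 5 FPKM, 6.2% from 5 to 20 FPKM and 3.24% from 20 FPKM, over the 33 genes with 1 annotated transcript.

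For the 14 genes with several transcripts, the same transcript mostly dominated in all groups. Dut was an exception in degree. Its transcript NM_001159646 made up 25.5%, 19.8% and 27% of the Dut FPKM at day 1, 23.6%, 42.8% and 43.6% at day 5 on BME, and 18.4%, 13.4% and 22.9% on BME + COL. Of the 3 BME day 5 values 2 were the highest and the first was within the day 1 range, so the groups overlap. For Uhrf1 the main transcript, NM_010931, took 53.3% to 60.6% on BME and 62.1% to 69.7% on BME + COL. For Cdc45, NM_009862 took 47.6% to 71.5% on BME and 67.6% to 75.3% on BME + COL, with the lowest share in replicate b of day 5. Shares between transcripts that overlap are estimates by Cufflinks.

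Other replication genes outside the 47 followed them. Of 37 listed symbols, 36 were found and tested, and 35 were lower and 0 higher on BME than on BME + COL at day 5, with a median of -1.44. Of all tested genes 45.3% were lower and 30.3% higher. The largest differences were those of Dna2, a nuclease and helicase of Okazaki fragments (-2.21, SE 0.31, limma adjusted p = 0.000129), and Ticrr, which helps to fire origins (-2.19, SE 0.39, adjusted p = 0.00065). Mcm9, which serves repair rather than the replication ring, was not called (0.09, adjusted p = 0.638, limma). Between BME + COL and day 1, 32 of the 36 were higher and 0 lower, where 34.2% and 31.8% of all tested genes were, led by Dna2 (1.70) and Dscc1 (1.65).

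Between the days on BME 8 of these 36 genes were called lower and 0 higher (limma), and 16 and 0 at an unadjusted p under 0.05. The share called lower among all tested genes was the same, 22.2%, and their share at the unadjusted threshold was not computed. Pold4, the small accessory subunit of polymerase delta, led with 98, 101 and 98.3 FPKM at day 1, 44.8, 38.2 and 40.2 at day 5 on BME, and 87.5, 89.1 and 90.7 on BME + COL. Unlike the 47 genes it was about as low in replicates a and c as in replicate b. Its difference between the days was -1.27 (SE 0.08, limma adjusted p = 5.93e-05), and it was not called between BME + COL and day 1 (-0.15, adjusted p = 0.113, limma). Slbp, which binds histone mRNA, followed at -0.63 (adjusted p = 0.0153, limma), with Mtbp, a partner in origin firing, also at -0.63 (adjusted p = 0.0383, limma).

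Of 36 other genes of purine, pyrimidine and folate metabolism, 31 were lower and 3 higher on BME than on BME + COL, with a median of -1.44, where 45.3% of all tested genes were lower and 30.3% higher. Shmt1, the cytosolic serine hydroxymethyltransferase of folate metabolism, had the largest difference, at -2.30 (SE 0.24, limma adjusted p = 2.31e-05). The 3 that were higher on BME were Ctps2, a CTP synthase (1.82, SE 0.12, limma adjusted p = 1.64e-06), Tk2 (1.09, SE 0.09, adjusted p = 5.44e-06) and Dguok (0.30, adjusted p = 0.0253). Tk2 and Dguok are the mitochondrial deoxynucleoside kinases.

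Tk2 and Tk1 thus lay on opposite sides. Tk2 had 7.11, 6.18 and 6.91 FPKM at day 1, 8.54, 9.03 and 9.51 at day 5 on BME, and 3.74, 4.5 and 4.3 on BME + COL, without overlap between groups, and replicate b was not apart for it. It was the only gene of this list called higher on BME at day 5 than at day 1 (0.42, SE 0.09, limma adjusted p = 0.0111). Ctps2 also had all 3 day 5 values above the day 1 values, and was not called (0.34, adjusted p = 0.0583, limma). Of the list 6 were called lower, where 22.2% of all tested genes were, led by Mthfd2 (-0.91, adjusted p = 0.0319, limma) and Shmt2 (-0.85, adjusted p = 0.0196, limma), of the mitochondrial folate pathway. Between BME + COL and day 1, 28 were higher, where 34.2% of all tested genes were, led by Shmt1 (1.69) and Impdh2 (1.59), and 2 were lower, Ctps2 (-1.47) and Tk2 (-0.68).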

How the data were processed

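RNA of 9 D2.0R cultures was sequenced, and groups were taken from the sample titles. The authors deposited FPKM per transcript, written by Cufflinks (version not given in the sources used here). TopHat2 2.0.8, CASAVA 1.8.4, Trimmomatic 0.30, Partek and the mm9 and NCBIM37 builds stand in the submitters' processing notes. The authors' own test in Partek needs alignments, so limma was used.

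FPKM were summed per gene symbol and log2(FPKM + 0.1) was fitted with limma 3.58.1 in R 4.3.3 (group means, 6 residual degrees of freedom, intensity trend, two-sided, Benjamini-Hochberg adjustment over the 10497 tested genes of each comparison). The fit was tested on simulated data. Tables and plots were made in Python 3.11.15 (numpy 2.4.6, pandas 2.3.3, matplotlib 3.10.9). The files hold no counts, so precision comes from the Cufflinks intervals.

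The 47 genes, their roles, the further lists and the motifs were chosen with earlier results of these data known. FPKM in every library were given for the called gene with the largest rise or fall of each role in each comparison. Its log2 difference, SE and adjusted p were not printed for every comparison. The rule for each further list was up to 2 in each direction, and most of those were given without FPKM. Values of 1 gene that this rule selects from those lists are not reported here. Orc3, Orc5, Cdt1, Gmnn, Mcm6, the GINS and RPA genes, Pcna, Rfc3, Rrm2, Dut, Mcm9 and Dguok were named after their values were seen.

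Only a short part of each promoter was compared with the RefSeq promoter table of a later build, and for 38 of the 47 it was found there. Among the printed windows, those of Cdc6 and Mcm4 come from promoters whose part was not found. The matches printed for Mcm5, Prim1 and Uhrf1 lay outside the compared part, so they were not checked. Nothing says that a replicate letter marks a shared day, and residuals of same-lettered libraries correlated between -0.23 and 0.10, so the letters did not pair the libraries. The alternatives covered the pseudocount (1 or 0.01), the filter (none or 5 FPKM), scaling (TPM, median ratio, quantile, genes under 300 nt removed), transcript choice, libraries fitted, trend and block.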

Additional observations from a re-analysis of the deposited data

How the results depend on the processing

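Between BME and BME + COL at day 5, 43 to 47 of the 47 genes were called lower and 0 higher under all alternatives, with 44 in TPM and 43 of the 43 tested at a minimum mean of 5 FPKM. Of all tested genes 21.2% to 51.6% were called lower over these alternatives. The genes whose call was lost were Cdt1 in 14 of 21 alternatives, Orc3 and Orc5 in 2 and Gins4 in 1. Between BME + COL and day 1, 37 to 47 were called higher, where 14.7% to 40.6% of all tested genes were. The median of 1.18 was 0.96 in TPM and 0.97 without genes shorter than 300 nt. The calls between the days on BME were unstable: against 4 lower and 0 higher, there were 8 and 1 in TPM, 2 and 2 without short genes, and 0 lower with no filter on low values, with only the 6 libraries compared or with no intensity trend. Of all tested genes 21.3% were lower and 14.6% higher in TPM, and 15.8% and 19.2% without short genes. In the settings with 0 lower, 5.66%, 5.89% and 20.9% of all tested genes were lower, in the order named. Median-ratio scaling gave 1 higher and quantile normalization 2, where 18.7% and 18.1% of all tested genes were higher. With the replicate block 1 gene was called lower, where 19.6% of all tested genes were. The block changed no call of the 47 genes in the other comparisons. Leaving out 1 library at a time gave 0 to 21 lower and 0 to 1 higher. Of all tested genes 9.7% to 30.9% were then lower and 5.08% to 12.1% higher. No call turned to the opposite direction. The median of all tested genes between BME and BME + COL turned from -0.18 to 0.16 in TPM and to 0.18 without short genes. These rescalings moved all genes together. The causes of the other changes were not tested. With 3 libraries per group and 1 of them apart, differences between the days on BME of the size of their SE could not be resolved.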
